A study of Mus musculus with 4 samples.

Results

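Ribosomal protein paralogs and the canonical genes they resemble were followed in F9 cells after knockdown of Phf19. The genes were Rpl39l and Rpl39, Rpl22l1 and Rpl22, Rpl3l and Rpl3, Rps27l and Rps27, and Rpl7l1, 9 genes chosen by name around Rpl39l, which was already known to have the largest fall in this comparison. Of 45101 probe sets on the array, 14 were listed with one of these genes alone, and they covered 8 of the 9 genes. Rpl3 was listed only together with other genes, so no value is given for it. A further 4 probe sets listed a member together with another gene or pseudogene.

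F9 is a mouse embryonal carcinoma line. Stable F9 cells carried the lentiviral hairpin vector pLKO.1 with a short hairpin RNA against Phf19 (shPhf19, 2 arrays) or the pLKO.1 vector control (shVector, 2 arrays). Both groups were infected and selected with puromycin. The Phf19 protein is an accessory factor of Polycomb repressive complex 2, which methylates histone H3. Neither the number of hairpin sequences nor whether replicates came from separate infections is given in the sources used here, so p-values measure only the spread between these arrays.

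A mammalian ribosome contains a fixed set of proteins in its large (Rpl) and small (Rps) subunits, and for some of them the genome holds a second gene that encodes a closely related protein. Such paralogs are often expressed in restricted tissues. Rpl39l is known for its expression in the male germ line and in some embryonic stem cells and tumours, and Rpl3l for its expression in striated muscle. Rps27l is a known target of p53, and the Rpl22 protein is known to repress expression of its paralog Rpl22l1.

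The stretches upstream of the RefSeq starts of Rpl39l, its partner Rpl39 and Rpl22l1 are shown, because Rpl39l and Rpl22l1 were the members furthest below 0 in shPhf19 cells (log2 changes of -2.30 and -0.27), while Rpl39, the partner of Rpl39l, was at -0.05. Each is the 250 bases before the annotated start in GRCm38.p6, read 5′ to 3′ on the strand of the gene, with CpG dinucleotides in capitals. They lie at chr16:10169978-10170227 (plus strand) for Rpl39l, chrX:37085223-37085472 (minus strand) for Rpl39 and chr3:28805258-28805507 (plus strand) for Rpl22l1.
Rpl39l: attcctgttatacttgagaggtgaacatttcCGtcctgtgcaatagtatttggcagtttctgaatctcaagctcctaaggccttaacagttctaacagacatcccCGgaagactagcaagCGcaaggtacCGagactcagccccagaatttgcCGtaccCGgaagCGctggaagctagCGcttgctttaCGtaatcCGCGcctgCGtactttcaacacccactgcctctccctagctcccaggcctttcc
Rpl39: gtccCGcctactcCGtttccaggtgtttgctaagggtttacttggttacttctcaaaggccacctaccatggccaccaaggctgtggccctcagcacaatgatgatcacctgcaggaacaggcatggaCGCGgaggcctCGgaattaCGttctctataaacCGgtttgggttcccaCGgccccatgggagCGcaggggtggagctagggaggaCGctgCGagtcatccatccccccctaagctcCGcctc
Rpl22l1: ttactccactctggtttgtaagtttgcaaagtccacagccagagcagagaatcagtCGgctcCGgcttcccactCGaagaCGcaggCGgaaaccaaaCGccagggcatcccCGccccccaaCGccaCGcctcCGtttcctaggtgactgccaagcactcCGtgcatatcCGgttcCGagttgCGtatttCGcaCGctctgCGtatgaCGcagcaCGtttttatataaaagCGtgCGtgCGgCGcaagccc

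RefSeq windows were held for 8 of the 9 genes, 11 windows in all. The upstream stretch of Rpl39l held 12 CpG dinucleotides and that of Rpl39 also 12, a count reached by 33.5% of 32851 windows of the same length. Rpl22l1 held 23, a count reached by 13.3% of windows, and the median window held 6. The windows of Rpl3l were the poorest in CpG among the members, with 2 and 3. The letters CCGGAA, the core of the motif of ETS transcription factors, were searched on both strands. They occurred 2 times upstream of Rpl39l and 1 time upstream of Rpl7l1, in no other member window, in 12% of all windows, and in at least 1 window of 25 of the 56 canonical ribosomal protein genes with a window. The letters TATAAA, found in many promoters just before the start, were also searched on both strands. They occurred 2 times upstream of Rpl22l1, as overlapping matches on opposite strands in the same short stretch. They also occurred 1 time upstream of Rpl39, in 1 of the 2 windows of Rpl22, in 12.4% of all windows, and in a window of 1 of those 56 genes. These motifs were chosen after the sequences were seen, and a match is a description of the letters only. Genes for the translation machinery characteristically begin in a run of C and T. Within 10 bases on either side of the start, the longest such run was 9 bases in Rpl22l1 and Rps27. It was 7 in Rpl39l, 5 in Rpl39 and 2 in Rpl7l1. The genes with 2 windows gave 7 and 4 (Rps27l), 5 and 3 (Rpl22), and 4 and 4 (Rpl3l). The median over all windows was 4 bases and over the 56 canonical ribosomal protein genes 6 bases, taking the window with the longest run for each gene.

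The array values are log2 expression per probe set. Array medians lay between 5.75 and 5.76. Values of different probe sets depend on their probes. Bright, dim and above or below the array median therefore describe the signal only, not the amount of transcript. Arrays correlated across probe sets at 0.9974 within shVector, 0.9984 within shPhf19 and 0.9961 to 0.997 between groups. Phf19 was lower by probe set 1427920_at, at 6.07 and 6.14 in shVector and 5.08 and 5.17 in shPhf19, which left 50.7% of the control signal (log2 change -0.98 ± 0.10 SE, limma adjusted p = 0.0108). Its other probe set, 1431857_at, gave -0.06 ± 0.12 (limma adjusted p = 0.928). All 12 measured markers of embryonal carcinoma cells lay above the array median on every array. Their mean signal was between 12.12 and 12.18. None had a limma adjusted p under 0.05, beside 2.02% of all genes called. The smallest p-values belonged to Nanog, which was lower (log2 change -0.26 ± 0.05 SE, limma adjusted p = 0.0923), and Fgf4, which was higher (0.19 ± 0.06, limma adjusted p = 0.240). Nanog has no other probe set, and the other 3 of Fgf4 gave 0.03 to 0.16.

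Rpl39l encodes a paralog of Rpl39, a small protein that lines the exit tunnel of the large subunit. Its only probe set, 1423327_at, gave 9.40 and 9.18 in the shVector arrays and 7.06 and 6.93 in the shPhf19 arrays. Both shPhf19 arrays were therefore far below both shVector arrays, with 2.12 between the nearest arrays of the groups and at most 0.23 between replicates. The means were 9.29 ± 0.16 (SD, n = 2) and 6.99 ± 0.09 (SD, n = 2). The log2 change, given here and for all members as shPhf19 minus shVector, was -2.30 ± 0.10 (SE), which left 20.4% of the control signal. In the shPhf19 arrays Rpl39l still lay above the array median. This fall was the reason the genes were chosen, so it is a description and not a test.

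Rpl39, the canonical partner, had a nearly level signal. Probe set 1423032_at gave 6.95 and 6.90 in shVector and 6.89 and 6.87 in shPhf19. The shPhf19 arrays were the lower ones, but by only 0.02 between the nearest arrays, less than the 0.04 between the shVector replicates. The log2 change was -0.05 ± 0.09 (SE), with a 95% interval of -0.25 to 0.16. The signals of Rpl39 and Rpl39l in the same 4 arrays thus moved by -0.05 and -2.30 on the log2 scale. Hybridisation of either probe set to the other transcript was not analysed here. A much brighter probe set, 1450840_a_at, is listed with Rpl39 and Gm32211 together. It gave 14.30 and 14.32 in shVector and 14.28 and 14.33 in shPhf19, a change of -0.01 ± 0.04 (SE). These values lie near the top of the range, where array signals compress.

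Rpl22l1 encodes a paralog of Rpl22, an RNA-binding protein of the large subunit. Its probe set 1417126_a_at gave 12.93 and 12.98 in shVector and 12.69 and 12.67 in shPhf19. Both shPhf19 arrays lay below both shVector arrays, with 0.24 between the nearest arrays and no more than 0.04 between replicates. The log2 change was -0.27 ± 0.04 (SE), with a 95% interval of -0.38 to -0.17, which left 82.8% of the control signal. A change at least this far below 0 was seen in 4.8% of all 18193 genes, taking for each gene the brightest probe set listed with it alone.

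Rpl22 itself was measured by 3 probe sets. Probe set 1416603_at gave 13.18 and 13.19 in shVector and 13.27 and 13.25 in shPhf19, a log2 change of 0.07 ± 0.04 (SE). Probe set 1453118_s_at gave 14.23 and 14.21 against 14.27 and 14.27, a change of 0.04 ± 0.03. In both, the shPhf19 arrays were the higher ones, by 0.06 and 0.03 between the nearest arrays. Probe set 1448398_s_at gave 10.45 and 10.35 against 10.47 and 10.41, with overlapping groups and a change of 0.04 ± 0.07. The 95% interval of all 3 changes included 0.

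Rps27l and Rps27 encode near-identical zinc finger proteins of the small subunit. The 3 probe sets of Rps27l had overlapping groups. Probe set 1450925_a_at gave 13.19 and 13.29 in shVector and 13.32 and 13.25 in shPhf19, a log2 change of 0.04 ± 0.05 (SE). The others, 1423254_x_at and 1435429_x_at, gave changes of 0.04 ± 0.06 and 0.03 ± 0.05. In all 3, shVector replicate 1 was the lowest array. The names of the latter 2 end in _x_at, the Affymetrix mark for possible cross-hybridisation. Rps27 gave 7.52 and 7.51 in shVector and 7.58 and 7.54 in shPhf19 by probe set 1460699_at, a change of 0.04 ± 0.08. Its shPhf19 arrays were higher by 0.02 between the nearest arrays, a gap within the 0.04 between the shPhf19 replicates. A much brighter probe set, 1415716_a_at, is listed with Rps27 and Rps27rt together. It gave 14.26 and 14.18 in shVector and 14.26 and 14.28 in shPhf19, a change of 0.05 ± 0.04.

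Rpl3l, the muscle paralog of the large subunit protein Rpl3, was dim. Probe set 1449398_at gave 4.50 and 4.45 in shVector and 4.40 and 4.45 in shPhf19, below the array median on every array. The groups overlapped, and the log2 change was -0.05 ± 0.09 (SE). The deposited table has no detection calls, so a value this low may be background. Markers of striated muscle were mostly dim too, with 11 of 16 below the array median on every array and a mean signal of 5.16 to 5.26. Of these 16, 1 rose and none fell, beside 2.02% of all genes called. It was Mylpf, a myosin light chain gene of fast muscle, at 11.58 and 11.69 in shVector and 12.06 on both shPhf19 arrays (log2 change 0.43 ± 0.06 SE, limma adjusted p = 0.0270). Mylpf has no other probe set, and its call was lost with the replicate block, as were all calls. The part of muscle transcripts in the signal of Rpl3l was not tested.

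Rpl7l1, a paralog of the large subunit protein gene Rpl7, had 3 probe sets with overlapping groups. Probe set 1452049_at gave 11.14 and 11.33 in shVector and 11.19 and 11.15 in shPhf19, a log2 change of -0.07 ± 0.08 (SE). Probe set 1439780_at gave 9.28 and 9.48 against 9.42 and 9.37, a change of 0.01 ± 0.09. In both of these, the shVector replicates lay further apart than the group means. Probe set 1426386_at gave 10.62 and 10.65 against 10.64 on both shPhf19 arrays, a change of 0.01 ± 0.06. The canonical Rpl7 gave -0.03 ± 0.04.

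**Figure D1:**
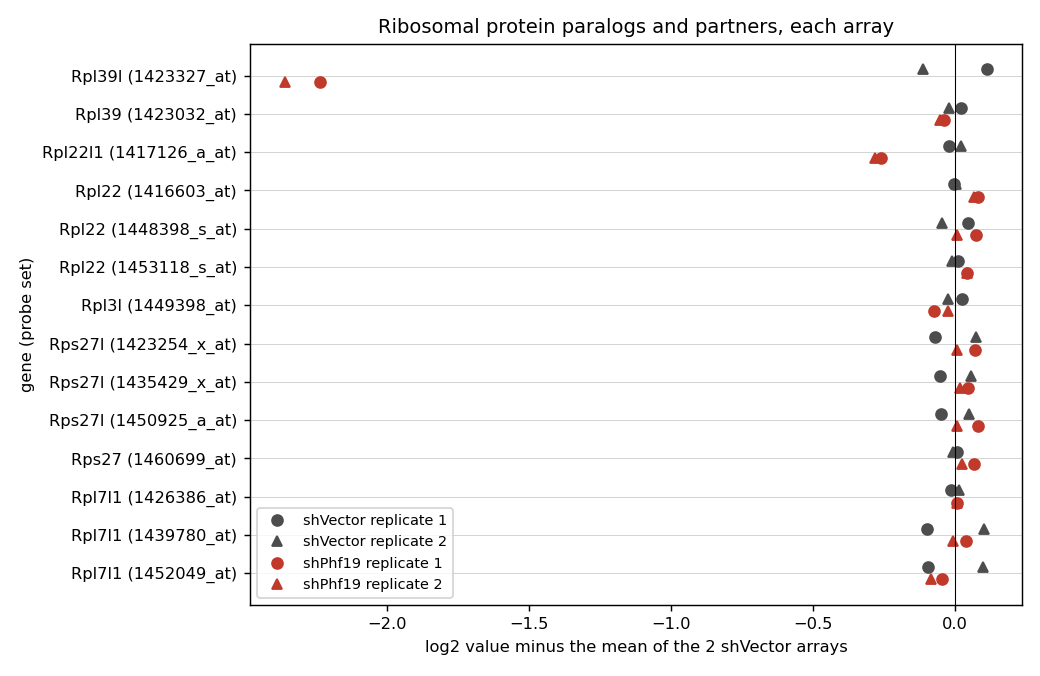
Log2 value of each of the 14 probe sets on each of the 4 arrays, minus the mean of the 2 shVector arrays of that probe set (horizontal axis); grey symbols are shVector, red symbols shPhf19, circles replicate 1 and triangles replicate 2. The shPhf19 arrays of Rpl39l sit more than 2 below 0 and those of Rpl22l1 between -0.28 and -0.26, while every symbol of the other 12 probe sets lies within 0.101 of 0.

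Over the 14 probe sets, 2 were past the limma threshold (adjusted p under 0.05), those of Rpl39l and Rpl22l1, both lower, and 12 were not. That is 14.3% of the member probe sets, beside 1.41% of the 45037 probe sets tested. Since the choice of genes used this contrast, nothing is read from that share. Rpl22l1 was only just past the threshold (limma adjusted p = 0.0467) and not past it without the variance trend (limma adjusted p = 0.241). When a single array of either group was removed (each of the 4 in turn), or when the replicate number entered as a block, limma called 0 of the 14 and 0 of all probe sets, while the log2 change of Rpl39l stayed between -2.41 and -2.18 and that of Rpl22l1 between -0.29 and -0.25. In 6 of the 14 the shPhf19 and shVector arrays did not overlap, 3 lower and 3 higher, which is 42.9% beside 40.5% of all probe sets. The 12 probe sets other than those of Rpl39l and Rpl22l1 had changes between -0.07 and 0.07, and their 95% intervals together ran from -0.27 to 0.24. The median over the 14 was 0.02. The 4 probe sets that also list another gene, which include those of Rpl3, had changes from -0.01 to 0.05, and none was called.

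The remaining proteins of both ribosomal subunits were described by lists of gene names. Of 76 genes other than the members, 41 were measured by a probe set of their own and 0 passed the threshold, beside 2.02% of all genes. The limma count at an unadjusted p under 0.05 was also 0, beside 15.1% of all genes (2744 of 18193). Of 20 measured large subunit genes, 17 (85%) had a change above 0, beside 49.0% of all genes, and the median was 0.02. Rpl37 gave 0.13 ± 0.07 (SE, limma adjusted p = 0.557) and Rpl8 0.05 ± 0.04 (limma adjusted p = 0.708). Of 21 measured small subunit genes, 15 (71.4%) were above 0, with a median of 0.01. Rps19, the gene first linked to Diamond-Blackfan anaemia, gave 0.05 ± 0.04 (limma adjusted p = 0.645) and Rps28 gave -0.03 ± 0.03 (limma adjusted p = 0.801). Over all genes the median was 0.00, with quartiles at -0.09 and 0.08. All 41 changes lay between -0.12 and 0.13. Most of these probe sets were very bright, and 34 of the 41 had a mean within 1 log2 unit of the highest value in the table, where array signals compress. The lowest of the 41 changes was that of Rps16, whose only single-gene probe set was dim, at 2.96 to 3.32.

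A list of other ribosomal protein paralogs held 4 genes, of which Rps4l alone was measured. Rps4l, a paralog of the small subunit gene Rps4x, gave 12.40 and 12.50 in shVector and 12.12 and 12.16 in shPhf19. Both shPhf19 arrays were below both shVector arrays. The log2 change was -0.31 ± 0.06 (SE), or 80.6% of the control signal. It did not pass (limma adjusted p = 0.0603), nor did it after median centring, without a variance trend or with the replicate block. It passed after quantile normalization, with either filter on dim probe sets and with the mean of probe sets per gene. For Rps4l that mean is the same single probe set, adjusted over genes rather than probe sets. With 1 array left out, the change stayed between -0.36 and -0.26. A change at least as low as that of Rps4l was seen in 668 of 18193 genes. Rps4x gave 14.34 and 14.37 against 14.34 and 14.33, a change of -0.02 ± 0.03.

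The rest of the translation machinery was close to level. Of 72 measured ribosome biogenesis factors, 0 passed, beside 2.02% of all genes, and the median change was 0.02. At an unadjusted limma p under 0.05 there were 4, beside 15.1% of all genes. The smallest p-values belonged to Taf1d, a subunit of the RNA polymerase I selectivity factor (0.30 ± 0.06 SE, limma adjusted p = 0.106), and Tsr2, a chaperone of a small subunit protein (0.22 ± 0.06, limma adjusted p = 0.199). The other 6 probe sets of Taf1d gave 0.00 to 0.32, and the other probe set of Tsr2 gave 0.03. None of these was called. Of 49 initiation and elongation factors, 1 rose, 0 fell and 48 did not pass, with a median of 0.01. That share is near the 2.02% called among all genes. The one that rose was Eif4g3, which encodes an eIF4G scaffold of cap-dependent initiation. It gave 7.46 and 7.50 in shVector and 8.13 and 8.17 in shPhf19, or 1.59-fold (log2 change 0.67 ± 0.08 SE, limma adjusted p = 0.0183). Its other 3 probe sets, all dimmer, gave -0.14, 0.00 and 0.07. The call was lost without any 1 array, with the replicate block and with the mean of probe sets per gene (0.15 ± 0.07, limma adjusted p = 0.399). With that mean, another factor was called lower in its place: Eif4ebp1, an eIF4E-binding repressor of initiation, named after its values were seen (-0.35 ± 0.06, limma adjusted p = 0.0301, against -0.09 ± 0.04 by its brightest probe set). Of 77 mitochondrial ribosomal protein genes, 0 passed (8 at an unadjusted limma p under 0.05, beside 15.1% of all genes) and the median was -0.02. Mrps6 gave 0.34 ± 0.07 (limma adjusted p = 0.0955) and Mrpl57 -0.20 ± 0.05 (limma adjusted p = 0.178). Their other probe sets, both dimmer, gave 0.26 for Mrps6 and -0.05 for Mrpl57.

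**Figure D2:**
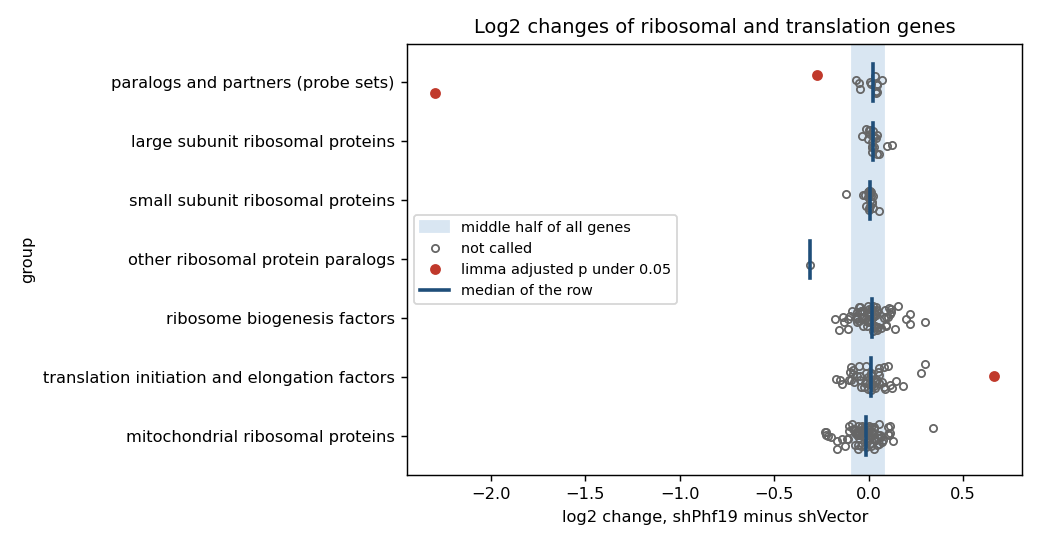
Log2 change (shPhf19 minus shVector, horizontal axis) of the 14 member probe sets and of 1 probe set per gene in 6 lists; red filled points passed the limma threshold, open points did not, blue bars are row medians and the shaded band spans the quartiles of all genes, -0.09 to 0.08. Rpl39l at -2.30 lies far from every other point, and Eif4g3 at 0.67 is the only called point outside the top row.

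Because Rpl39l is best known from the male germ line, markers of spermatids were set beside it. Of 16 measured, 12 lay below the array median on every array and 4 above it, and the mean signal ranged from 5.04 to 5.11 over the 4 arrays. None passed the threshold and the median change was 0.01. At an unadjusted limma p the lowest belonged to Odf2, which encodes an outer dense fibre protein also found in centrosomes (0.18 ± 0.05 SE, limma adjusted p = 0.216), followed by Hspa1l (0.16 ± 0.09, limma adjusted p = 0.569). The defining sperm nuclear protein genes of the list were named after their values were seen. Tnp1 lay between 3.28 and 3.53, Tnp2 between 3.46 and 3.51, Prm2 between 5.04 and 5.09 and Prm1 between 7.11 and 7.35. Only Prm1 lay above the array median. In the same order, their changes were -0.03 ± 0.11, -0.01 ± 0.09, -0.03 ± 0.09 and 0.08 ± 0.11. The part of germ line transcripts in the change of Rpl39l was not tested.

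The genes nearest to Rpl39l in their values over the 4 arrays were found by the root mean square difference after each gene was centred on its own shVector mean. Krt17, an epithelial keratin gene, was nearest at 0.22 on the log2 scale, and its values were 8.01 and 7.97 in shVector and 6.06 and 5.93 in shPhf19. Serpinf1, which encodes a secreted serpin, followed at 0.39. The next were Hhip, an antagonist of Hedgehog signalling, at 0.52, Msln, which encodes mesothelin, at 0.54, Sgms2, a sphingomyelin synthase gene, at 0.55 and Serpinb6c at 0.56. Their log2 changes ran from -2.0 for Krt17 to -1.52 for Serpinb6c, none as low as that of Rpl39l. None of these 6 genes encodes a ribosomal protein. With 2 arrays a group, this measure mostly reflects the size of the fall.

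**Figure D3:**
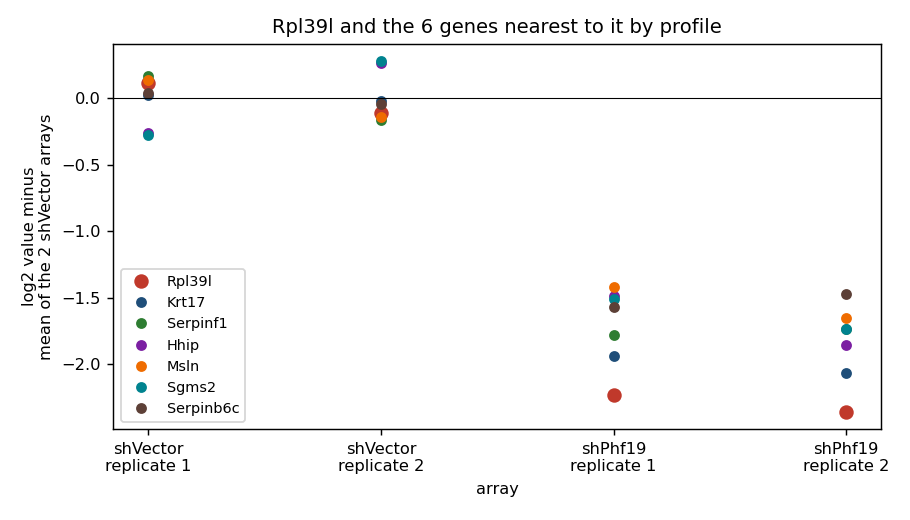
Log2 value minus the mean of the 2 shVector arrays of each gene (vertical axis) on the 4 arrays (horizontal axis), for Rpl39l and the 6 nearest genes, 1 colour per gene. All 7 genes are near 0 in shVector and between -2.36 and -1.42 in shPhf19, with Rpl39l the lowest on both shPhf19 arrays.

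The measured genes beside Rpl39l on chromosome 16, in RefSeq order, had changes between -0.37 and 0.26. The 3 on one side were Usp7, which encodes a ubiquitin protease, 1810013L24Rik and Grin2a, an NMDA receptor subunit gene. The 3 on the other side were Atf7ip2, Emp2, which encodes an epithelial membrane protein, and Tekt5, a tektin gene of sperm. By the brightest probe set of each gene, none passed the threshold. By these probe sets 2 had an unadjusted limma p under 0.05, beside 15.1% of all genes. Emp2 gave 8.28 and 8.15 in shVector and 7.85 and 7.84 in shPhf19, a log2 change of -0.37 ± 0.09 (SE, limma adjusted p = 0.130). Its other 2 probe sets gave -0.16 and 0.07. Atf7ip2, the next gene after Rpl39l, went the other way with 8.0 and 8.16 against 8.41 and 8.26, a change of 0.26 ± 0.10 (limma adjusted p = 0.346). The remaining changes were 0.11 ± 0.05 for Usp7, 0.06 ± 0.08 for 1810013L24Rik, -0.16 ± 0.09 for Grin2a and -0.20 ± 0.14 for Tekt5. Dimmer probe sets gave -0.34 to 0.09 for Usp7, -0.18 to 0.10 for 1810013L24Rik, and 0.03 and 0.37 for Atf7ip2. Over all 20 probe sets of these 6 genes, changes ran from -0.37 to 0.37 and 0 were called.

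**Figure D4:**
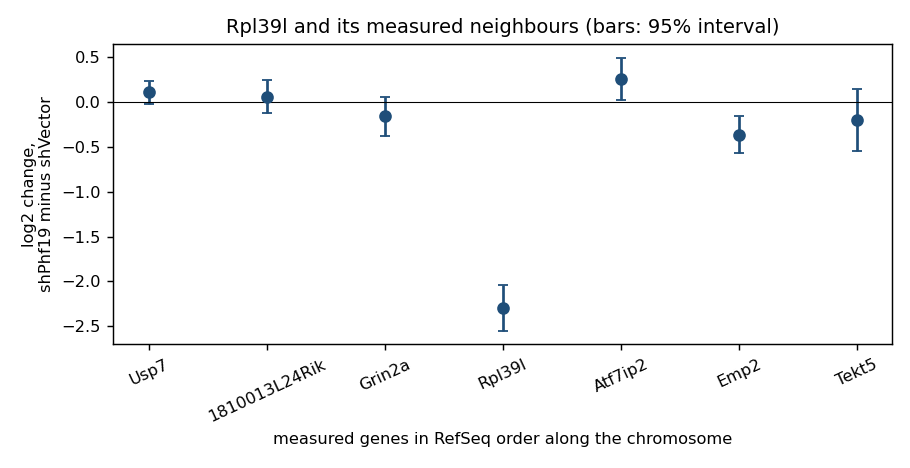
Log2 change (shPhf19 minus shVector, vertical axis) of Rpl39l and the 3 measured genes on each side in chromosome order (horizontal axis, not to scale in distance), 1 probe set a gene; bars are limma 95% intervals. Rpl39l lies at -2.30 and its neighbours between -0.37 and 0.26.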

How the data were processed

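Total RNA of 4 F9 cultures was hybridised to Affymetrix mouse expression arrays. The deposited log2 values, 1 per probe set and array, had been normalized between arrays by the authors, as judged from their coinciding medians; the scale was read from the range of 2.31 to 14.54. Neither the software nor the background correction is given in the sources used here. Members and gene lists were chosen with earlier results of these data known. After 64 control probe sets were left out, 45037 entered limma 3.58.1 (R 4.3.3; eBayes with an intensity trend, two-sided, Benjamini-Hochberg over all probe sets, threshold 0.05). SE is limma's moderated error. GEO's platform annotation listed 34945 probe sets with 1 gene, 932 with several and 9160 with none; RefSeq held 34741 of the gene numbers and changed 0 symbols. List genes were represented by their brightest single-gene probe set, and 47 of 331 were not measured. Named list genes were up to 4 passing genes per direction, or the 2 smallest p-values. Simulated data of this comparison (45037 probe sets) had independent normal errors, with variances drawn from limma's own fitted prior. On these, limma found 3 of 50 changes of 0.5, 45 of 50 changes of 1 and 50 of 50 changes of 2. Among 44837 probe sets without a change it called 6. The assumptions of limma held there by design, so these counts are not error rates for the real arrays. Same-numbered arrays deviated with a correlation of -0.197, so no pairing was used. The alternatives were other normalization, centring, variance model, filters on dim probe sets, probe set choice, replicate blocks and leaving out each array. The number of arrays limits the precision.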

Additional observations from a re-analysis of the deposited data

How the results depend on the processing

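Over all probe sets 636 were called, 380 without a variance trend, and 0 with the replicate block (3890 at an unadjusted limma p under 0.05). With 1 array left out, 0 to 0 were called (2539 to 6942 at an unadjusted p under 0.05); such a fit assumes that the lone array of its group varies like the other group. Of the 2 called member probe sets, 1 (Rpl39l) was called without a variance trend, 0 with the replicate block and 0 to 0 with 1 array left out. Rpl39l was called again under 6 of 11 alternatives and Rpl22l1 under 5 of 11, and neither changed sign. The 1 called Phf19 probe set gave 0 with the replicate block, 0 without the lowest 50% of probe sets, which leaves it out, and 0 to 0 with 1 array left out. The 1 call among initiation and elongation factors (Eif4g3, higher) gave 0 with the replicate block and 0 to 0 with 1 array left out; with the mean of probe sets it was lost and 1 other factor, Eif4ebp1, was called lower. Among other paralogs, 0 became 1 (Rps4l) with quantile normalization, without the lowest 25% or 50% of probe sets and with the mean of probe sets. Among mitochondrial ribosomal proteins, 0 became 1 (Mrps6) with that mean. A crossed replicate block, added after seeing the data, called 596 probe sets in all and 2 member probe sets. The causes were not tested.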
